A study of Homo sapiens with 8 samples.

Results

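NEDD9, CXCR4, ENPP2, KISS1R, PAG1 and CRISPLD2 are genes of cell migration and signalling that were picked because earlier analysis of these same arrays had listed them among genes raised by histone deacetylase inhibitors. Their probe sets were taken as those for which the array platform's annotation gives exactly 1 gene symbol equal to a member. This found 16 probe sets for the 6 genes, of 54613 probe sets on the array and of 41091 with exactly 1 symbol, which name 19775 genes. All members but KISS1R fitted the name of strongly induced genes. The level of KISS1R was 8.02 with vehicle, 8.49 with largazole, 7.46 with SAHA and 8.61 with FK228, on the log2 scale. Since the rises against vehicle chose the members, those differences are given below as a description, with no test.

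The cells were HCT116, an established human colorectal carcinoma line, seeded at 400000 per well and treated 1 day later for 10 h. Each of 4 groups has 2 Affymetrix U133 2.0 arrays: a vehicle control, SAHA at a dose of 2 µM, and the depsipeptides FK228 and largazole, which were both dosed at 20 nM. Largazole is a cyclic depsipeptide whose thioester is cleaved to free a zinc-binding thiol, and FK228 (romidepsin) is a bicyclic depsipeptide whose disulfide is reduced to free one. SAHA (vorinostat) is a hydroxamic acid. Whether the duplicates are separate cultures is not stated, so p-values measure the spread between these samples, which may be technical. Array medians lay between 4.47 and 4.51 (log2), and Pearson's r over all probe sets was 0.995 to 0.997 within a group and 0.975 to 0.984 between treated and vehicle arrays. The epithelial identity of the line was visible in EPCAM, at 12.12 to 12.58 in the group means, while the leukocyte gene PTPRC (CD45) stood at 2.47 to 2.65. Not every marker followed this. With vehicle, CD79A of the leukocyte list stood at 5.57 and COL1A1 of the fibroblast and endothelial list at 7.13.

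Histone deacetylase inhibitors raise the acetylation of histones and other proteins, and many silent or weakly active genes gain transcripts within hours of exposure. The members act at the cell surface and beneath it. CXCR4 is the G protein-coupled receptor for the chemokine CXCL12 and guides migrating leukocytes and tumour cells, and KISS1R is the G protein-coupled receptor for kisspeptins, first known as products of a metastasis suppressor gene. ENPP2 encodes autotaxin, the secreted enzyme that makes the lipid signal lysophosphatidic acid from lysophosphatidylcholine. NEDD9 is a CAS family scaffold that links focal adhesion kinase and SRC to CRK at adhesions. PAG1 is a lipid raft adaptor that recruits CSK, the kinase that holds SRC family kinases inactive, and CRISPLD2 is a secreted CAP domain glycoprotein of the extracellular matrix.

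Promoter sequences from RefSeq (GRCh38.p14) are shown for members that rose together. Windows are given for NEDD9, CXCR4 and CRISPLD2, 3 of the 6 members. ENPP2, KISS1R and PAG1 have no window here. The search left out members of a whole chromosome by rule, but that rule need not account for each of these genes. Printed are the 250 bases before an annotated start, 5′ to 3′ on the gene's strand, with capitals marking matches to the motifs searched. NEDD9 has starts far apart, and both its distal start (chr6:11382349-11382598, minus strand) and its proximal start (chr6:11232669-11232918, minus strand) are given. The CXCR4 window is that of its most upstream start (chr2:136118150-136118399, minus strand), and CRISPLD2 has a single window (chr16:84819735-84819984, plus strand).
NEDD9 distal: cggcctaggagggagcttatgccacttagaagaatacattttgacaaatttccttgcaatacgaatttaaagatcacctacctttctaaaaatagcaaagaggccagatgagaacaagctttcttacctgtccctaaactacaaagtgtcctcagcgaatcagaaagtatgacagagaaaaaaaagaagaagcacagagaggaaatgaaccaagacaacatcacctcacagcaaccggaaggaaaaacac
NEDD9 proximal: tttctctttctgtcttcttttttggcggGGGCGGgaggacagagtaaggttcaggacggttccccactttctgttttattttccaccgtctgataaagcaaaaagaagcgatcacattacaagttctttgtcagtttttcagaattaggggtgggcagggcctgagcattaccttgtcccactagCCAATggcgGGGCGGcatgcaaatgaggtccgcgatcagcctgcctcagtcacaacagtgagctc
CXCR4: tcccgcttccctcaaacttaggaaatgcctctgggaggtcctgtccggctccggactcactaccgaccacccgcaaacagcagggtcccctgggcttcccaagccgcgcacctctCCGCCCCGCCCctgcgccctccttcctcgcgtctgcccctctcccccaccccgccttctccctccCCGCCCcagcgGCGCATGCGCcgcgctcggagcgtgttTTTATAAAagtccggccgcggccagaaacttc
CRISPLD2: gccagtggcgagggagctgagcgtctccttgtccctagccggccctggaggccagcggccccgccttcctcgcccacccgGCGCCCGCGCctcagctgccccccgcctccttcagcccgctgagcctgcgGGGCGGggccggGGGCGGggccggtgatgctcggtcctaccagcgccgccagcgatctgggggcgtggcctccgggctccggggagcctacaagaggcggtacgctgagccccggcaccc

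The motifs, searched on both strands, were the GC box GGGCGG, the CCAAT box CCAAT, the TATA box TATAAA, the AP-1 site TGANTCA, the CRE core TGACGTCA and the NRF1 motif. The CXCR4 window held 3 GC boxes, of which a pair overlaps by 1 base, an NRF1 match 59 to 50 bases before the start and overlapping TATA matches on both strands 32 to 25 bases before it. CRISPLD2 held 2 GC boxes and an NRF1 match 170 to 161 bases before its start. The proximal NEDD9 window held 2 GC boxes and a CCAAT box, and the distal one had none of the motif letters. Among 35114 promoter windows of the same length, 42.6% held a GC box, 32% a CCAAT box, 10.7% a TATA box and 7.16% an NRF1 match. GC content was 77.6% for CRISPLD2, 68% for CXCR4, 50% for the proximal and 40.4% for the distal NEDD9 window, beside a median of 58% over all windows. The windows of these genes spanned GC-poor to GC-rich sequence. The matches are a description of letters, not of factor binding.

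Level is the deposited log2 value of a probe set, so a difference of 1 is a 2-fold difference. The SE of a difference comes from the limma fit to all 8 arrays, which pools the spread of the groups. It is therefore equal for the compounds at a given probe set, and n counts the arrays per group. The median of the whole table, 4.49, served as filter value: a probe set was tested if 2 or more of its 8 arrays reached it, and a group mean below 4.49 is called near background. Of the 16 member probe sets, 13 passed this filter, some of them only through their treated arrays, and 7 of the 13 were near background with vehicle. Sizes of rises from such low levels are less certain. The plot of all member levels shows each array.

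**Figure D1:**
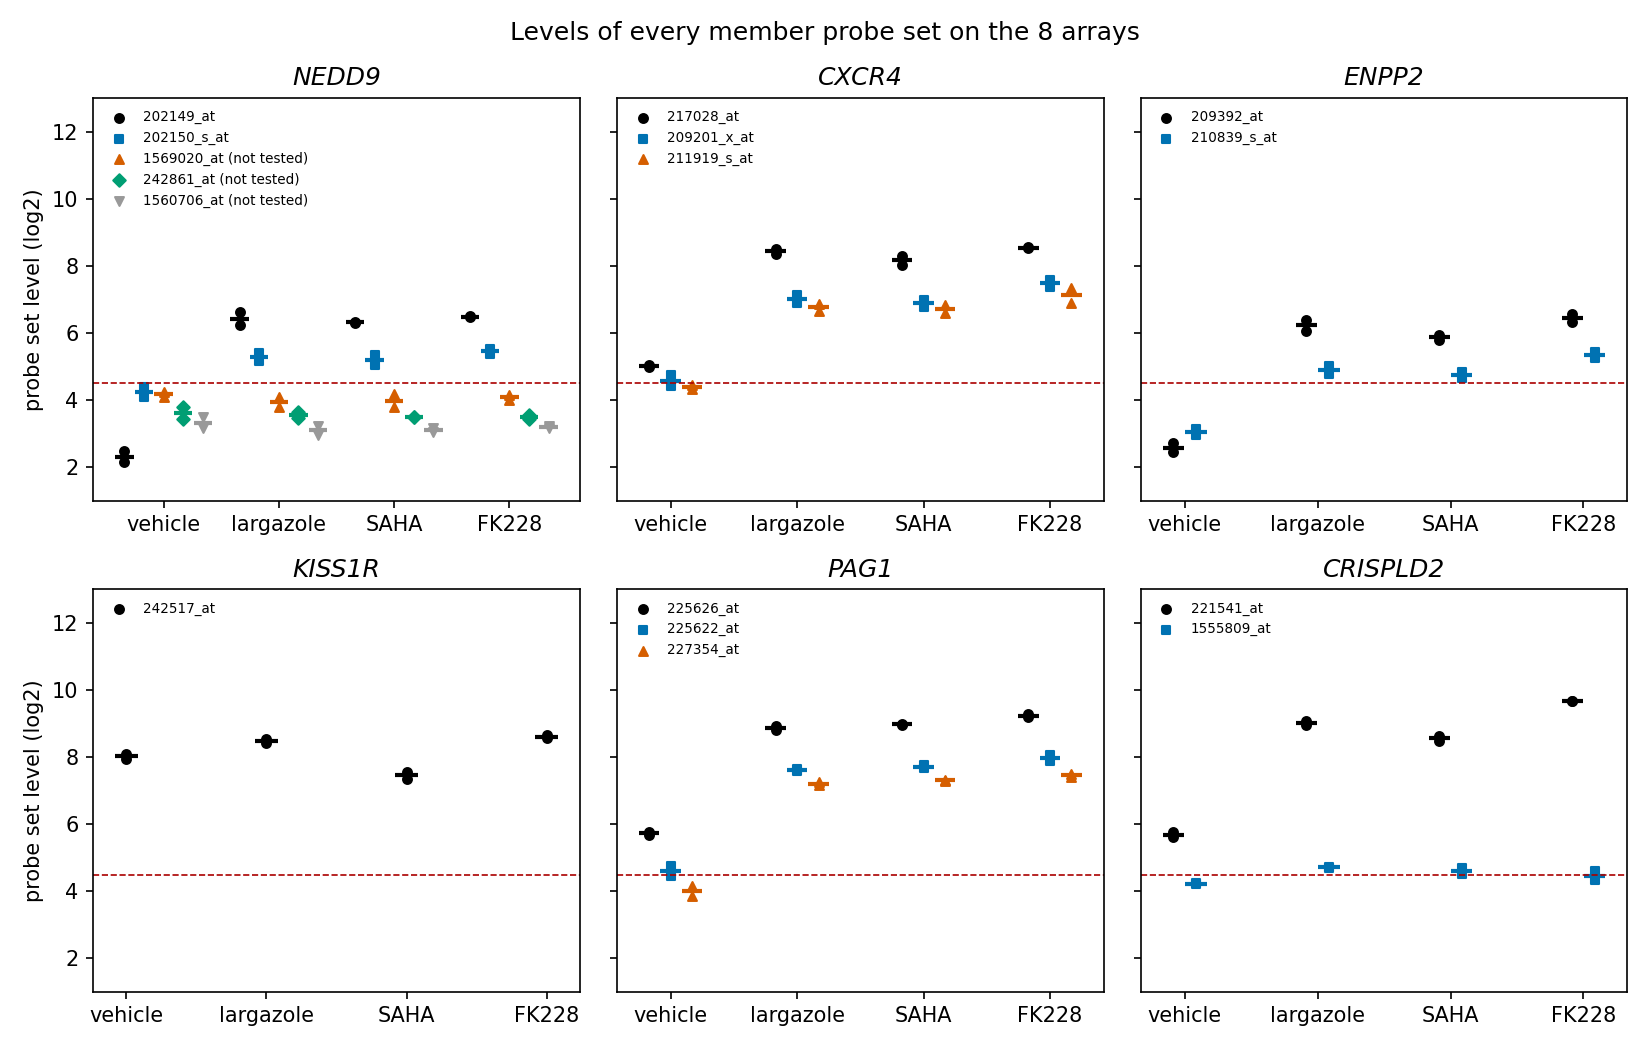
Log2 level of each of the 16 member probe sets (vertical axis) in the 4 groups (horizontal axis), with 1 point per array and a short bar at the mean of the 2 arrays. The dashed line is the filter value of 4.49. Probe sets of NEDD9 disagree, with 3 of 5 below the line in every group, and among the 13 tested probe sets only KISS1R has both SAHA arrays below its vehicle arrays, as the untested NEDD9 1560706_at has too.

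CXCR4, the chemokine receptor, went from levels near the filter value to well above it on all 3 of its probe sets. Probe set 217028_at read 4.98 and 5.03 on the vehicle arrays, 8.50 and 8.36 with largazole, 8.29 and 8.03 with SAHA and 8.56 and 8.53 with FK228. Treated and vehicle arrays did not overlap, and the group means stood in the order vehicle, SAHA, largazole, FK228 with no overlap between neighbours. The differences from vehicle were 3.43 ± 0.11 with largazole, 3.16 ± 0.11 with SAHA and 3.54 ± 0.11 with FK228 (SE, n = 2), or 10.8-fold, 8.93-fold and 11.6-fold. Probe set 209201_x_at read 4.41 and 4.73 with vehicle, 6.90 and 7.13 with largazole, 6.78 and 6.98 with SAHA and 7.36 and 7.59 with FK228. Probe set 211919_s_at read 4.33 and 4.45 with vehicle, 6.67 and 6.87 with largazole, 6.58 and 6.83 with SAHA and 6.90 and 7.35 with FK228. On these, SAHA and largazole arrays overlapped, FK228 arrays lay above both, and differences from vehicle ran from 2.31 to 2.90.

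CXCL12, the CXCR4 ligand, and ACKR3, the other CXCL12 receptor, had no tested probe set. CXCL12 stood at 4.04 with vehicle, 3.75 with largazole, 3.98 with SAHA and 4.19 with FK228, and ACKR3 between 3.36 and 3.74, all near background. Of 22 other chemokine receptors listed, 3 had a tested probe set (CXCR1, CXCR3 and CXCR5), and limma called none of the 3 with any compound. CXCR4 is also a gene of blood cells, and the summed level of 11 leukocyte markers was 41.39 to 42.03 on the vehicle arrays and 44.48 to 45.76 on the treated ones. PTPRC, which defines leukocytes, stayed near background. The marker that moved most was NCAM1, a neural and natural killer cell adhesion molecule. NCAM1 rose by 2.85 with largazole, 2.60 with SAHA and 3.20 with FK228, to levels of 6.60, 6.35 and 6.94.

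Signalling genes downstream of CXCR4 went both ways. Of 18 tested genes on the list of CXCR4 ligands, ligand trimming and signal transducers, 3 rose and 3 fell with largazole, 5 and 2 with SAHA, and 4 and 4 with FK228, with medians of -0.02, -0.13 and -0.07. Over all 13381 tested genes, 21.9% were called higher and 23.2% lower with largazole, 22.1% and 25.2% with SAHA, and 25.7% and 27.1% with FK228, with medians of 0.0016, -0.02 and 0.01. GRK5, a kinase that phosphorylates active G protein-coupled receptors, rose by 1.44 ± 0.091 with largazole (limma adjusted p = 2.6e-05), 1.54 with SAHA and 1.67 with FK228, though another of its 4 tested probe sets, 1569949_at, was not called with any compound. RGS16, which speeds the shutdown of G protein signals, rose by 0.90, 0.87 and 1.23. GNAI1, an inhibitory G protein alpha subunit, fell, with differences of -0.98 with largazole, -0.94 with SAHA and -1.76 with FK228, and so did RGS3, at -0.94, -1.14 and -1.38. GNAI2, another inhibitory alpha subunit, was called higher with all 3 compounds, at 0.79, 1.03 and 1.05. GNAI3 was called higher with SAHA (0.29) and FK228 (0.23) and not with largazole.

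KISS1R had 1 probe set and was expressed well above background in every group. It read 7.96 and 8.08 with vehicle, 8.43 and 8.55 with largazole, 7.36 and 7.57 with SAHA and 8.66 and 8.56 with FK228. Both depsipeptide groups lay above the vehicle arrays and the SAHA arrays lay below them, with no overlap between neighbours in the order SAHA, vehicle, largazole, FK228. The differences from vehicle were 0.47 ± 0.10 with largazole, -0.56 ± 0.10 with SAHA and 0.59 ± 0.10 with FK228 (SE, n = 2). This pattern, with largazole and FK228 arrays above and SAHA arrays below the vehicle arrays, was shared by 72 of 28985 tested probe sets (0.248%). The pattern was taken from the KISS1R values themselves, so nothing is read from how rare it is. Doses differ between SAHA and the depsipeptides, so their levels are side by side only.

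KISS1, which encodes the kisspeptins, had no tested probe set and stood at 3.89 with vehicle, 4.17 with largazole, 3.99 with SAHA and 4.23 with FK228. Of 17 tested genes of the kisspeptin pathway, 7 rose and 2 fell with largazole, 7 and 4 with SAHA, and 6 and 3 with FK228, with medians of -0.0052, 0.13 and 0.14. Over all tested genes 21.9% rose and 23.2% fell with largazole, 22.1% and 25.2% with SAHA, and 25.7% and 27.1% with FK228. ITPR1 and ITPR2, the inositol trisphosphate receptors that release calcium, rose by 1.32 and 1.22 with largazole, 1.30 and 1.50 with SAHA, and 1.04 and 1.34 with FK228. The ITPR2 probe set 211360_s_at was called with FK228 and not with largazole (0.05, limma adjusted p = 0.751) or SAHA (0.27, 0.0779). GNAQ, the alpha subunit of the G protein through which KISS1R signals, fell by 0.91, 0.77 and 0.87 with the same compounds, though of its 5 tested probe sets 211426_x_at was not called with any compound and 224863_at not with SAHA. GNA11, an alpha subunit of the same family, rose by 0.61 with largazole, 0.71 with SAHA and 1.00 with FK228 (limma adjusted p = 0.000617, 0.000255 and 3.39e-05). PLCB1, a phospholipase C activated by that G protein, fell by 1.27 with largazole (limma adjusted p = 9.88e-05), 1.29 with SAHA and 1.51 with FK228.

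ENPP2 rose from the lowest part of the scale. Probe set 209392_at read 2.72 and 2.44 with vehicle, 6.38 and 6.07 with largazole, 5.93 and 5.80 with SAHA and 6.32 and 6.58 with FK228. SAHA arrays lay below those of both depsipeptides, whose arrays overlapped. Its differences from vehicle were 3.64 ± 0.15, 3.28 ± 0.15 and 3.87 ± 0.15 with largazole, SAHA and FK228 (SE, n = 2). Probe set 210839_s_at read 3.12 and 2.96 with vehicle, 5.01 and 4.79 with largazole, 4.67 and 4.83 with SAHA and 5.26 and 5.44 with FK228. Both probe sets were near background with vehicle, so the folds of 3.26 to 14.6 over the probe sets and compounds are uncertain.

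Genes that make, break down or sense lysophosphatidic acid went both ways. Of 16 tested genes of that pathway, 4 rose and 5 fell with largazole, 3 and 6 with SAHA, and 3 and 7 with FK228, with medians of -0.04, -0.0087 and -0.21. Over all tested genes 21.9% rose and 23.2% fell with largazole, 22.1% and 25.2% with SAHA, and 25.7% and 27.1% with FK228. Of the receptors, LPAR1 and LPAR2 fell, while LPAR3 rose with largazole (0.51, limma adjusted p = 0.018) and was not called with SAHA (0.31, 0.103) or FK228 (0.14, 0.435). LPAR1 read 6.75 and 6.82 with vehicle, 6.11 and 5.83 with largazole, 5.95 and 6.04 with SAHA and 5.39 and 5.18 with FK228, with every treated array below the vehicle arrays. It changed by -0.82 ± 0.12 with largazole, -0.79 ± 0.12 with SAHA and -1.50 ± 0.12 with FK228 (SE, n = 2; limma adjusted p = 0.00113, 0.00124 and 3.7e-05), and LPAR2 by -0.57, -0.64 and -0.51, though its probe set 206722_s_at was not called with FK228 (-0.21, 0.149). A further LPAR1 probe set, 204036_at, fell with all 3 compounds and 204038_s_at was called with FK228 (limma adjusted p = 0.0297) and not with largazole (0.0558) or SAHA (0.0830). PLPP1, a phosphatase that degrades the lipid, rose by 0.68, 0.71 and 0.50, and PLA2G4A, a cytosolic phospholipase A2, by 0.81, 0.82 and 0.68. PLPP2, of the same family as PLPP1, was called lower, at -0.49, -0.63 and -0.47, and PLPP3 was not called. LIPH, a lipase that makes the lipid from phosphatidic acid, fell by 0.50, 0.49 and 1.07.

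Of 4 other ENPP genes tested, 3 rose and 0 fell with each compound, beside 21.9%, 22.1% and 25.7% of all tested genes that rose with largazole, SAHA and FK228. ENPP1, which produces pyrophosphate, rose by 0.91 with largazole, 0.94 with SAHA and 0.95 with FK228, and ENPP5 by 1.02, 1.08 and 0.81. ENPP4 was the third. ENPP3 was not called, at 0.31, 0.42 and 0.13 (limma adjusted p = 0.141, 0.0555 and 0.508).

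NEDD9 probe sets differed widely, and both tested ones were near background with vehicle. Probe set 202149_at read 2.47 and 2.14 with vehicle, 6.63 and 6.22 with largazole, 6.31 and 6.33 with SAHA and 6.51 and 6.47 with FK228. The treated groups overlapped with their neighbours and none overlapped vehicle. Its differences of 4.12 ± 0.155, 4.01 ± 0.155 and 4.18 ± 0.155 with largazole, SAHA and FK228 (SE, n = 2) start from a vehicle mean of 2.31, so their size is uncertain. Probe set 202150_s_at read 4.10 and 4.38 with vehicle, 5.15 and 5.40 with largazole, 5.33 and 5.03 with SAHA and 5.37 and 5.52 with FK228. Its differences were 1.04, 0.94 and 1.21. The remaining 3 probe sets (1569020_at, 242861_at and 1560706_at) were not tested, stayed between 2.95 and 4.25 on all arrays and differed from vehicle by -0.23 to -0.07. With the tested probe sets averaged, the NEDD9 differences were 2.58, 2.48 and 2.70.

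Partners of NEDD9 at adhesions went both ways. Of 23 tested CAS family and focal adhesion kinase genes, 3 rose and 9 fell with largazole, 3 and 11 with SAHA, and 3 and 11 with FK228, with medians of -0.23, -0.18 and -0.33. Over all tested genes 21.9% rose and 23.2% fell with largazole, 22.1% and 25.2% with SAHA, and 25.7% and 27.1% with FK228. TRIP6, a LIM domain protein of adhesions, read 9.72 and 9.76 with vehicle, 7.12 and 7.09 with largazole, 6.96 and 6.83 with SAHA and 6.91 and 6.89 with FK228. Its falls were 2.63 ± 0.082, 2.84 ± 0.082 and 2.84 ± 0.082 (limma adjusted p = 3.02e-06, 2.32e-06 and 8.06e-07). AJUBA, a related LIM protein, fell by 1.10, 1.22 and 1.86, and PTK2, which encodes focal adhesion kinase, by 0.37, 0.41 and 0.50 on the probe set with the highest mean, while its probe set 1559529_at was called higher with largazole and SAHA. Vinculin, VCL, which ties adhesions to actin, rose by 0.73, 0.65 and 0.90, and ELMO2, part of a RAC activator, by 0.69, 0.69 and 0.82, though its probe set 220363_s_at was not called with largazole (-0.01, limma adjusted p = 0.938). BCAR1, the CAS family member p130Cas, was not called with any compound (differences of -0.04, -0.14 and -0.02), but with SAHA it was at -0.36 (limma adjusted p = 0.0459) without SAHA replicate 2 and at 0.08 without SAHA replicate 1. Its sign is not settled, since a further quantile normalization turned it with largazole and FK228, and so did equal ribosomal protein medians with FK228.

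PAG1 rose alike on all 3 of its probe sets. Probe set 225626_at read 5.69 and 5.75 with vehicle, 8.80 and 8.94 with largazole, 9.00 and 8.95 with SAHA and 9.29 and 9.18 with FK228. The order was vehicle, largazole, SAHA, FK228 with no overlap between neighbours, and probe sets 225622_at and 227354_at kept this order without overlap. Probe set 225622_at read 4.76 and 4.45 with vehicle and 7.58 to 8.06 on the treated arrays, and 227354_at read 4.16 and 3.87 with vehicle and 7.17 to 7.51 on the treated ones. Over the 3 probe sets the differences were 3.01 to 3.19 with largazole, 3.11 to 3.30 with SAHA and 3.37 to 3.51 with FK228 (SE 0.0897 to 0.118, n = 2). PAG1 was the member with SAHA above largazole on every probe set, in contrast to the order of ENPP2 and CRISPLD2 probe sets 209392_at and 221541_at, where SAHA arrays were the lowest of the treated ones.

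The kinases that PAG1 regulates split. FYN, a SRC family kinase, read 7.03 and 6.73 with vehicle, 8.88 and 8.93 with largazole, 8.96 and 8.81 with SAHA and 8.95 and 8.91 with FK228. It rose by 2.03 ± 0.11, 2.01 ± 0.11 and 2.05 ± 0.11 (limma adjusted p = 1.82e-05, 1.64e-05 and 7.97e-06), and each of its 3 tested probe sets rose with each compound. CSK, the kinase PAG1 binds, fell by 0.47, 0.47 and 0.41. LYN, another SRC family kinase, fell by 0.38, 0.33 and 0.50 on its probe set with the highest mean. SRC fell on probe set 213324_at, with differences of -1.02, -1.43 and -1.60, but its other tested probe sets, 1558211_s_at and 221284_s_at, were not called. NHERF1, a scaffold that binds PAG1 and ezrin, rose by 1.32, 1.40 and 1.72, while CAV1, the caveolar coat protein, fell by 1.27, 1.27 and 1.51. In all, of 20 tested genes of this list, 3 rose and 7 fell with largazole, 3 and 9 with SAHA, and 4 and 8 with FK228, with medians of -0.085, -0.20 and -0.18. Over all tested genes 21.9% rose and 23.2% fell with largazole, 22.1% and 25.2% with SAHA, and 25.7% and 27.1% with FK228.

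**Figure D2:**
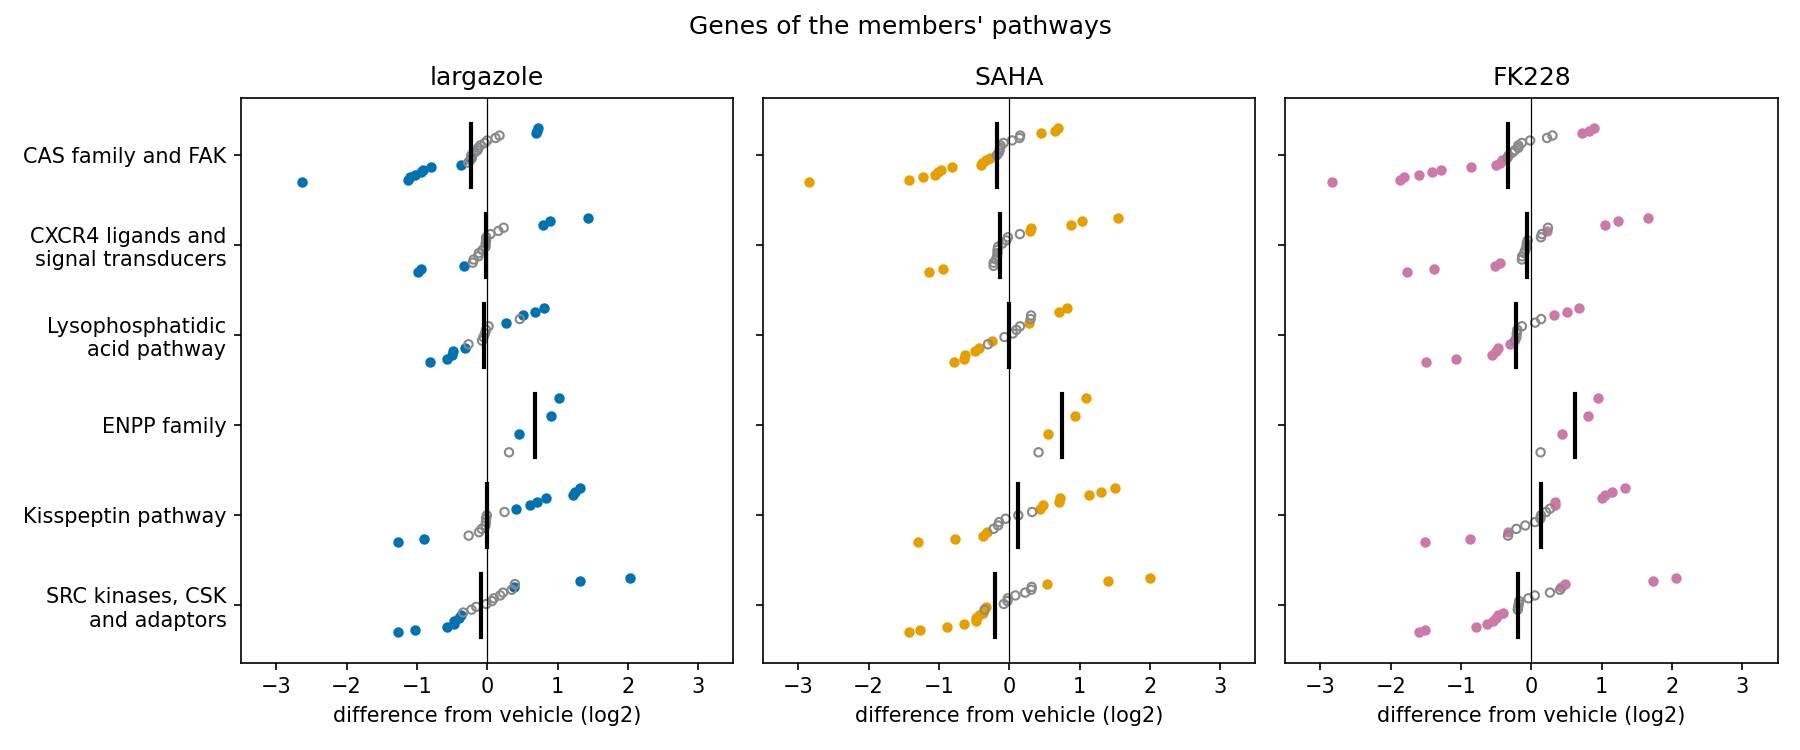
Log2 difference from vehicle (horizontal axis) of the tested genes of 6 pathway lists (rows) with each compound (panels). Filled points passed an adjusted p of 0.05 (limma), open points did not, and the black bar is the list's median. FYN at 2.03, 2.01 and 2.05 and TRIP6 at -2.63, -2.84 and -2.84 are the outermost points.

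The call of LYN ended with SAHA when vehicle replicate 2, SAHA replicate 1 or SAHA replicate 2 was left out (adjusted p = 0.137, 0.066 and 0.0846), with no filter (0.0608) or with only the 4 arrays compared (0.0597), and with largazole without vehicle replicate 2, largazole replicate 1 or largazole replicate 2 (0.0837, 0.0665 and 0.0627). PTK2 lost its largazole call without vehicle replicate 1, largazole replicate 1 or largazole replicate 2 (0.0697, 0.0652 and 0.0649), and its SAHA call, at -0.14, with its probe sets averaged (0.17). CSK lost its FK228 call without vehicle replicate 1 (0.0674). LIPH lost its largazole call without vehicle replicate 2 (0.0654) or largazole replicate 1 (0.0686), and its SAHA call without vehicle replicate 2 (0.0647).

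CRISPLD2 rose with each compound on probe set 221541_at, with the compounds spaced apart. Probe set 221541_at read 5.60 and 5.78 with vehicle, 8.95 and 9.07 with largazole, 8.49 and 8.63 with SAHA and 9.68 and 9.68 with FK228. Neighbouring groups did not overlap. Its differences from vehicle were 3.32 ± 0.098, 2.87 ± 0.098 and 3.99 ± 0.098 (SE, n = 2), or 9.97-fold, 7.3-fold and 15.9-fold with largazole, SAHA and FK228. Probe set 1555809_at read 4.25 and 4.20 with vehicle, 4.69 and 4.74 with largazole, 4.53 and 4.71 with SAHA and 4.60 and 4.32 with FK228, all close to the filter value. Its differences were 0.48, 0.39 and 0.23, with FK228 the lowest of the treated groups, so the probe sets of this gene disagree in size and in order.

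CRISPLD1, the closest relative of CRISPLD2, had no tested probe set and lay between 2.40 and 2.77 in the group means. Of 12 other CAP domain genes listed, 2 were tested. GLIPR1 fell by 0.70 with largazole, 0.52 with SAHA and 0.61 with FK228, and PI16 was not called. The SAHA call of GLIPR1 ended without vehicle replicate 1 (adjusted p = 0.054).

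**Figure D3:**
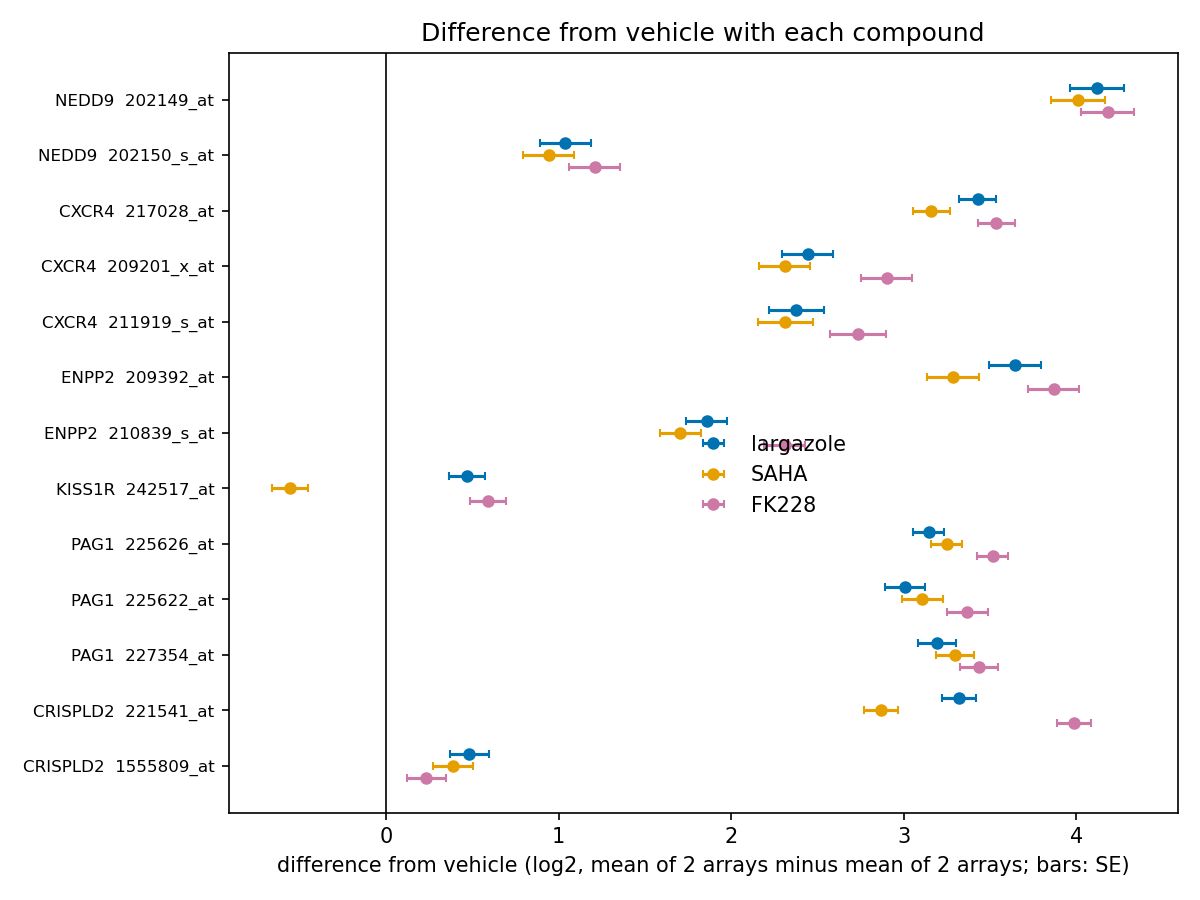
Log2 difference from vehicle (horizontal axis, mean of 2 arrays minus mean of 2 arrays, bars: SE from limma) of the 13 tested member probe sets (rows) with each compound. Differences of 4.01 to 4.18 for NEDD9 202149_at contrast with 0.94 to 1.21 for its probe set 202150_s_at, and KISS1R is at -0.56 with SAHA.

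Of the 13 tested member probe sets, 12 had every treated array above both vehicle arrays, beside 25.5% of the tested probe sets of the array. The members were chosen on this contrast, so nothing is read from that count. At least 2-fold higher than vehicle were 3.58% of all tested probe sets with largazole, 4.16% with SAHA and 5.44% with FK228. At least 2-fold higher with all 3 compounds were 10 member probe sets, and FK228 had the highest mean in 10 of these, while SAHA had the lowest of the treated means in 7. Among all 781 probe sets at least 2-fold higher with all 3 compounds, FK228 was highest in 59.8% and SAHA lowest of the treated in 35.7%. The members were chosen for rises against vehicle, so nothing is read from these counts either. FK228 and largazole arrays overlapped at NEDD9 202149_at and ENPP2 209392_at. Probe sets of a gene share their RNA, so the 10 stand for 5 genes.

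FK228 and largazole, given at the same dose and for the same time, were compared directly, as the only pair of compounds tested. FK228 exceeded largazole at CRISPLD2 221541_at by 0.67 (95% interval 0.44 to 0.90, limma adjusted p = 0.011), a 1.59-fold higher level, with both FK228 arrays above both largazole arrays. PAG1 225626_at was higher by 0.37 (0.16 to 0.58, adjusted p = 0.0477), a 1.29-fold difference, again with no overlap. The other 11 tested member probe sets were not called, so 2 of 13 were called higher and 0 lower. Over the array, 4.11% of tested probe sets were called higher with FK228 and 4.12% lower, and among the 781 that rose at least 2-fold with all 3 compounds 20% were called higher. Both called members are among the 10 member probe sets of that kind, a share like that among the 781. Both FK228 arrays lay above both largazole arrays at 9 of the 13 tested member probe sets, beside 30% of all tested ones. The members were chosen for rises against vehicle and most tested probe sets were not, so nothing is read from this count.

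The remaining intervals bound the difference between these depsipeptides. At NEDD9 202149_at FK228 minus largazole was 0.06 (-0.30 to 0.42, adjusted p = 0.845), at CXCR4 217028_at 0.11 (-0.14 to 0.35, adjusted p = 0.583), at ENPP2 209392_at 0.22 (-0.12 to 0.57, adjusted p = 0.395) and at KISS1R 0.12 (-0.12 to 0.36, adjusted p = 0.519) by limma. The intervals of CXCR4 209201_x_at (0.11 to 0.80), ENPP2 210839_s_at (0.17 to 0.73) and PAG1 225622_at (0.09 to 0.64) lay above 0, but their adjusted p of 0.103, 0.0607 and 0.106 missed the threshold. A stricter filter, at 6.87, called CXCR4 209201_x_at (0.0486) and PAG1 225622_at (0.0466), and equal ribosomal protein medians called ENPP2 210839_s_at (0.0448). With the replicate number as a block, CXCR4 209201_x_at was called (adjusted p = 0.0152) and 3587 in place of 2385 probe sets were called over the array. CRISPLD2 1555809_at leaned the other way, at -0.25 (-0.51 to 0.02, adjusted p = 0.22).

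**Figure D4:**
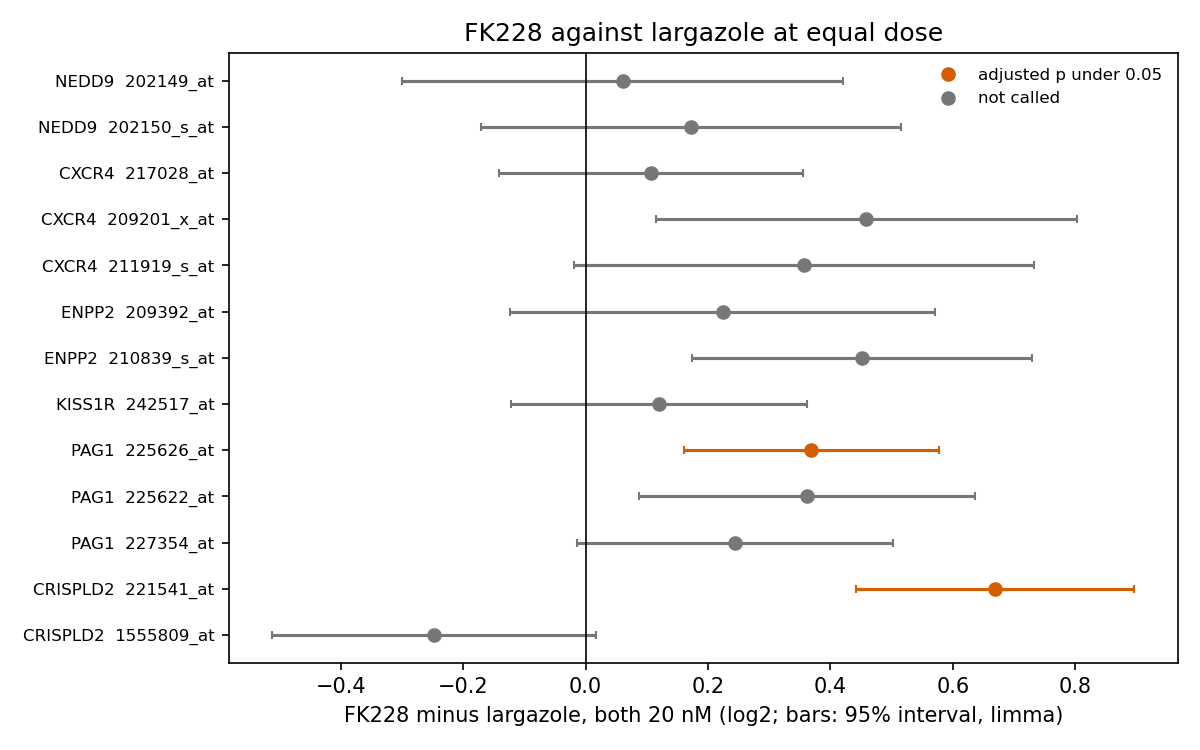
FK228 minus largazole, both at 20 nM, on the log2 scale (horizontal axis) for the 13 tested member probe sets (rows), with 95% intervals from limma. CRISPLD2 221541_at at 0.67 and PAG1 225626_at at 0.37 passed an adjusted p of 0.05, and the other 11 did not.

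These calls rest on few arrays. That of CRISPLD2 221541_at ended without largazole replicate 1 (adjusted p = 0.0913), largazole replicate 2 (0.0561) or FK228 replicate 1 (0.0509), though the difference stayed at 0.61 to 0.73, and with both probe sets of the gene averaged it was 0.21 (adjusted p = 0.155). PAG1 225626_at was called under 6 of 18 alternatives, at 0.30 to 0.44 (adjusted p = 0.0134 to 0.258), and its call ended whichever of the 8 arrays was left out. Over the array the count of 2385 called probe sets became 191 without largazole replicate 1, 315 without largazole replicate 2, 657 without FK228 replicate 1 and 725 without FK228 replicate 2.

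Among pathway genes, LPAR1 was lower with FK228 than with largazole by 0.68 (limma adjusted p = 0.0181), GNAI1 by 0.78 (0.0127), AJUBA by 0.76 (0.00634) and LIPH by 0.57 (0.027), and NHERF1 was higher by 0.40 (0.0381). In all, 3 of 100 tested pathway genes were called higher and 7 lower, beside 4.19% and 4.88% of all tested genes. Leaving out largazole replicate 1 ended the calls of LPAR1 (adjusted p = 0.12), GNAI1 (0.0967), AJUBA (0.0577), LIPH (0.0734) and NHERF1 (0.161). Without largazole replicate 2 those of AJUBA (0.0549), LIPH (0.138) and NHERF1 (0.172) ended, without FK228 replicate 1 those of LIPH (0.0833) and NHERF1 (0.106), and without FK228 replicate 2 those of LPAR1 (0.0801), GNAI1 (0.0611), LIPH (0.102) and NHERF1 (0.133). NHERF1 also lost its call without vehicle replicate 1 or vehicle replicate 2 (0.0624 each). With no filter the calls of LIPH (0.0569) and NHERF1 (0.0992) ended, and with only the 4 arrays compared those of LPAR1 (0.0557), LIPH (0.0576) and NHERF1 (0.0635).

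Genes with a pattern most like each member were found by Pearson's r over the 8 arrays, among 2050 genes whose group means spanned at least 1 on the log2 scale. For NEDD9 202149_at these were PELI1, ZBTB18 and PARM1 (r = 0.998 to 0.999), for CXCR4 217028_at VDR, GAS1 and PKIA (0.998 to 0.999), and for ENPP2 209392_at CYTH3, H2BC12 and CLIC3 (0.996 to 0.998). PAG1 225626_at was closest to TBPL1, FAM107B and COBL, and CRISPLD2 221541_at to ZNF703, FAM117A and TBC1D16, again at 0.998 to 0.999. Such values are common here, since 710 to 752 of the ranked genes exceeded 0.9 for each of these 5 members and all share the step from vehicle to treated arrays. KISS1R was unlike them. Its closest genes were ANKRD37 (0.79), RASD1 (0.78) and MICALL2 (0.77), and 0 exceeded 0.9.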

How the data were processed

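The deposited table holds log2 probe set levels of 8 Affymetrix U133 2.0 arrays. Tools listed in the submitters' processing notes are limma, RMA and affy. Which of them made the log2 values, and with what settings, the sources used here do not give. Nearly equal medians show that arrays were brought to 1 scale, and such summaries compress low levels. Precision is limited by how few arrays there are: the median half-width of the 95% interval of FK228 minus largazole was 0.26.

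The members and lists were chosen with earlier results of these data known. Probe sets with exactly 1 symbol were named from the platform annotation (41091, with 1801 of several symbols and 11721 of none). The 28985 probe sets past the filter entered 1 limma fit (version 3.58.1, under R 4.3.3, with 1 coefficient per group, 4 residual and 3.69 prior degrees of freedom), Benjamini-Hochberg adjusted over all of them and called at an adjusted p under 0.05. Over pathway lists, a gene stands for its tested probe set with the highest mean. No exact permutation test was run, since with 2 arrays against 2 the smallest two-sided p is 0.333. The fit was tested on simulated data.

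Named are all member probe sets, up to 2 highest and 2 lowest genes per list among those called with all 3 compounds, fixed ligands and partners, markers, and the 3 genes most like each member. Other named genes (ENPP4, ENPP3, GNA11, GNAI2, GNAI3, LPAR3, PLPP2, PLPP3, PI16, CXCR1, CXCR3, CXCR5) were singled out after their values were seen. The sample titles give every group replicates 1 and 2. Deviations of replicate 1 from its group mean correlated at 0.13 to 0.27 over the 6 pairs of groups, so the numbers were taken as pairing the arrays in the alternative with a replicate block. Of the lists of other cell types, that of epithelial markers was above the filter value at 6 to 8 of 10 genes, that of leukocytes at 2 to 3 of 11, and that of fibroblasts and endothelium at 4 to 5 of 11, with summed levels of 46.25 to 47.08 with vehicle and 45.71 to 47.87 with the compounds. Figures were drawn with Python 3.11.15 and matplotlib 3.10.9.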

Additional observations from a re-analysis of the deposited data

How the results depend on the processing

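Alternatives to the main settings were to drop the filter or raise it to 6.87, to let the prior follow intensity robustly, the replicate block, array weights, a further quantile normalization, equal ribosomal protein medians, only the 4 arrays of the groups compared, no probe sets named _x_at or _s_at, averaging a gene's probe sets, and each array left out in turn, its lone partner being assumed to vary like the other groups.

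The count called in FK228 minus largazole (2385) was 1058 with no filter, 3741 with the intensity-dependent prior, 3587 with the replicate block, 1240 with 4 arrays and 1359 without _x_at and _s_at probe sets, and 191 to 1991 with an array left out. At equal ribosomal protein medians 1594 were higher and 945 lower, in place of 1190 and 1195. Without _x_at and _s_at probe sets, which leaves fewer to test, the counts against vehicle were 7125 with largazole, 7612 with SAHA and 8592 with FK228, in place of 11790, 12666 and 14195. Pathway genes called stayed within 1.5 times of the 49, 56 and 56 in each alternative.

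Members' differences from vehicle kept their sign under each alternative. They moved by more than the replicate spread in 14 of 342 values outside those with an array left out. Most of these 14 came from averaging a gene's probe sets. That gave CRISPLD2 differences of 1.90 with largazole, 1.63 with SAHA and 2.11 with FK228. For CXCR4 they were 2.75, 2.59 and 3.06, and for ENPP2 2.75, 2.50 and 3.09. NEDD9 also moved with each compound, and PAG1 with FK228. With an array left out, NEDD9 202149_at ranged from -0.15 to 0.27 in FK228 minus largazole. BCAR1 turned to 0.0011 with largazole and 0.043 with FK228 after quantile normalization and to 0.039 with FK228 at equal ribosomal protein medians. With an array left out it ranged from -0.36 to 0.083 with SAHA and from -0.093 to 0.061 with FK228. Genes singled out after their values were seen were not followed through these alternatives. Among the other named genes, the replicate block changed no call but that of CXCR4 209201_x_at. The cause of these shifts was not tested.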

Other observations

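Among the 10 pathway genes called between FK228 and largazole, BCAR3, PLCB4, RDX, GNA11 and MATK were singled out after their values were seen. Their calls were not followed through the alternatives, and those of RDX and MATK lie at the threshold. BCAR3, which binds CAS scaffolds, was at -0.89 (limma adjusted p = 0.0130), PLCB4, a phospholipase C, at -0.70 (0.0360) and RDX, the ezrin relative radixin, at -0.31 (0.0498). GNA11 was at 0.39 (0.0270) and MATK, a CSK relative, at 0.44 (0.0495).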
